A study of Homo sapiens with 4 samples.

Results

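Metallothioneins are small cysteine-rich proteins that hold zinc, copper and cadmium ions in metal-thiolate clusters and so buffer free zinc in the cytoplasm. Their genes are switched on by the metal-responsive transcription factor MTF1, which senses zinc through its zinc fingers and binds metal response elements in the promoters of metallothionein genes and of SLC30A1, the plasma membrane zinc exporter ZnT1. Kidney epithelium is a tissue in which metallothioneins are readily induced by metals. The 10 genes described here were MT2A, MT1X, MT1E, MT1F, MT1G, MT1H, MT1M, MT3, MTF1 and SLC30A1, taken by name from the array's probe annotation. They had 1 probe each, out of 48701 probes and 19304 named genes. Metallothionein transcripts are similar in sequence, so a metallothionein probe may also read its relatives, and the levels given for one of these genes are uncertain in that respect.

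The 12 Illumina bead arrays came from 4 lines made by stable transfection of HEK293 cells, which descend from human embryonic kidney. AIRE-D312A carried the autoimmune regulator AIRE with a mutation in the first of its PHD fingers, AIRE1 and AIRE2 were 2 clone-derived lines with wild-type AIRE, and NC, the control line, carried yellow fluorescent protein. The transgenes of all 4 lines were driven by the cytomegalovirus immediate-early promoter, and no line was without a transgene. Each line had 3 arrays from independent experiments. A clone, or a single line, cannot be told apart from its transgene, and the p-values rest on the scatter of repeat experiments with each line. In the thymus, AIRE acts in the nuclei of medullary epithelial cells and is known for raising the transcription of genes otherwise restricted to other tissues.

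Between 15823 and 17288 probes were detected per array, and the median deposited intensity lay between 57.4 and 63.0. With 3 arrays per line, the number of arrays limits the precision. Of 2 AIRE probes, 1 was detected on all 3 arrays of AIRE-D312A, AIRE1 and AIRE2 and on 0 of the 3 NC arrays. The other was detected on 0 of the 3 arrays of every line. The detected probe stood at 8.31 ± 0.11 in AIRE-D312A, 8.90 ± 0.21 in AIRE1 and 8.51 ± 0.40 in AIRE2 (normalised log2 intensity, SD, n = 3 each). The part of these AIRE levels in the results below was not tested. Of the neuronal and renal developmental genes known in HEK293, 5 of the 7 on the array were measured. Against NC, 1 of these 5 was higher in each AIRE line, beside 2.64%, 5.21% and 5.93% of all genes in AIRE-D312A, AIRE1 and AIRE2. In the same order 2, 4 and 3 were lower, beside 1.32%, 3.06% and 3.52% of all genes. These are calls at a limma adjusted p under 0.05, without a replicate term. The part of these developmental genes in the results below was not tested. Of 4 thymic epithelial, 3 endothelial, 4 haematopoietic and 3 hepatocyte markers on the array, 0, 0, 1 and 1 passed the detection filter, whereas 3 of 4 fibroblast markers passed it. The replicate 2 arrays of all 4 lines stood apart from the others on the first principal component, which held 39.3% of the variance, so values without replicate 2 are given beside the results it touches.

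Promoter sequences from RefSeq (GRCh38.p14) were at hand for 5 of the 10 genes, and those of MT2A, MT1X, MT1H and SLC30A1 are shown because MTF1 acts through short elements in them. The 250 bases before the transcription start are printed 5′ to 3′ on the gene's strand, and capitals mark matches to the core of the metal response element, searched as TGCACNC and TGCGCNC on both strands. No match overlapped another.
MT2A, chr16:56608334-56608583, + strand: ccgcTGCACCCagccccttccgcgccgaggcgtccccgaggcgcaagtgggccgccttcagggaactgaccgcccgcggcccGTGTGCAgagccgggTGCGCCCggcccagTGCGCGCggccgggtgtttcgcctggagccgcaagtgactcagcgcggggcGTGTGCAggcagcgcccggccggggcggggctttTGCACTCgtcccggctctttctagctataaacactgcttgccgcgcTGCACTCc
MT1X, chr16:56682220-56682469, + strand: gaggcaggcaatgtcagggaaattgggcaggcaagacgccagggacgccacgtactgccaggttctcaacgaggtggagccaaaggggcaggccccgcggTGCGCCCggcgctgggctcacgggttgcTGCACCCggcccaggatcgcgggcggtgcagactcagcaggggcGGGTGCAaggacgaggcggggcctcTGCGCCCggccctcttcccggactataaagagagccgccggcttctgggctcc
MT1H, chr16:56669564-56669813, + strand: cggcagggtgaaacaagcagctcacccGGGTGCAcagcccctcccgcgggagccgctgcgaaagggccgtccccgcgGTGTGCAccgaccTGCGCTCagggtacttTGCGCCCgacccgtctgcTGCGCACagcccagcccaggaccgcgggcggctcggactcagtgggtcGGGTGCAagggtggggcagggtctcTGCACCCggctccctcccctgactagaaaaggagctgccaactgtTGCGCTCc
SLC30A1, chr1:211579162-211579411, - strand: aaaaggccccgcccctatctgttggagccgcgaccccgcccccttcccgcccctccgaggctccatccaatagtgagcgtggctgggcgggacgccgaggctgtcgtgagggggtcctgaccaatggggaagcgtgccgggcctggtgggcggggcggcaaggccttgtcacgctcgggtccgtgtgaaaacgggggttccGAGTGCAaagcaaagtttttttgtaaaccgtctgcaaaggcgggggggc

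MT2A had 7 matches in this window, MT1H 8, MT1X 4 and SLC30A1 1. MTF1 itself, also in the table, had 0 in its window. Of 35116 promoters of the same length, 24.8% held at least 1 match, 0.37% at least 4, 0.0313% at least 7 and 0.0171% at least 8. A match lay about 50 bases before the start in MT2A (-54 to -48), MT1X (-53 to -47), MT1H (-53 to -47) and SLC30A1 (-49 to -43). That of SLC30A1 was on the opposite strand and the others on the gene's strand. The share of all promoters with a match at this position was not counted. A match is a run of letters, not a measured binding site, and MT1H, with the most matches of those searched, was not detected in these cells.

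**Figure D1:**
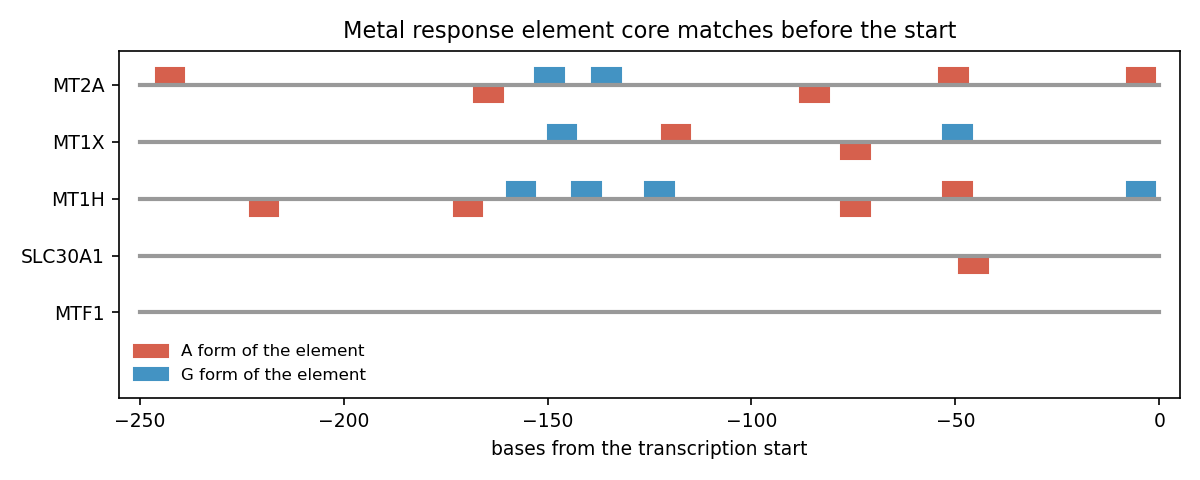
Positions of metal response element core matches in the 250 bases before the transcription start of 5 genes. Boxes above a line are on the gene's strand, boxes below it on the opposite strand, and colours separate the TGCACNC (A form) and TGCGCNC (G form) cores. MT2A has 7 boxes, MT1X 4, MT1H 8, SLC30A1 1 and MTF1 0.

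The metallothionein genes of the list lie together on chromosome 16, from MT3 at 56589528 to MT1X ending at 56684196 (GRCh38.p14), and MTF1 and SLC30A1 lie on chromosome 1. MT2A, MT1X, MTF1 and SLC30A1 were detected on all 12 arrays and MT1F on 11, so 5 of the 10 genes passed the detection filter, which asked for detection on all 3 arrays of at least 1 line. MT1F was missed on the NC replicate 2 array alone. It therefore passed the filter through the AIRE lines and not through NC.

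The other 5 genes, MT1E, MT1G, MT1H, MT1M and the brain metallothionein gene MT3, were detected on 0 of 12 arrays. The deposited intensity of the MT1E probe ranged over the 12 arrays from 54.4 through a median of 61.5 to 68.0. The MT1G probe ranged from 56.5 through 60.3 to 66.5, and the MT1M probe from 46.6 through 54.6 to 61.4. MT3 ranged from 49.8 through 55.4 to 61.0 and MT1H from 46.0 through 50.7 to 55.0. Each value lay under its own array's detection limit, which was between 66.3 and 72.1, and the nearest approach was MT1E at 0.95 of the limit. For these genes no fold between lines is given.

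**Figure D2:**
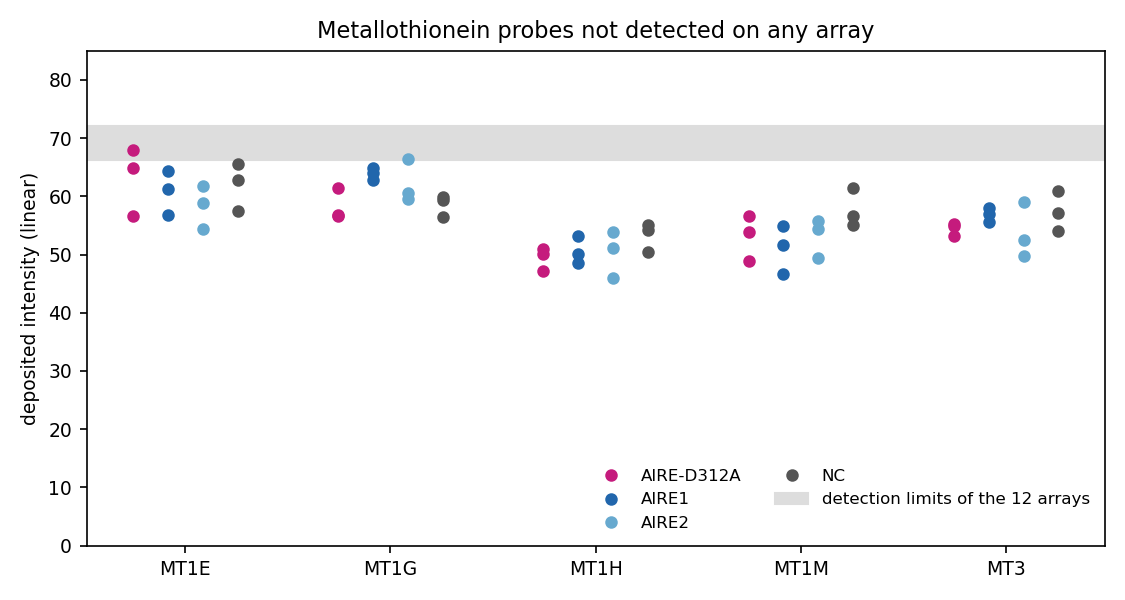
Deposited intensity (linear scale, not background-subtracted) of the 5 metallothionein probes that were not detected, 1 point per array, 3 arrays per line. The grey band spans the detection limits of the 12 arrays, 66.3 to 72.1, and every point lies below the limit of its own array.

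MT1F rose in all AIRE lines against NC in the fits without and with the replicate number as a block, and MT2A, described after it, did so with the block. On the normalised log2 intensity scale used from here on, MT1F stood at 6.15, 5.97 and 6.10 in AIRE-D312A, 6.87, 6.44 and 6.70 in AIRE1, 7.22, 6.63 and 6.97 in AIRE2, against 5.32, 4.74 and 5.43 in NC (replicates 1, 2 and 3). All 9 arrays of the AIRE lines lay above all 3 NC arrays. The share of all genes whose arrays separated like this, here or between other lines, was not counted. The line means and their spread were 6.07 ± 0.09 in AIRE-D312A, 6.67 ± 0.22 in AIRE1, 6.94 ± 0.30 in AIRE2 and 5.16 ± 0.37 in NC (SD, n = 3 each).

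**Figure D3:**
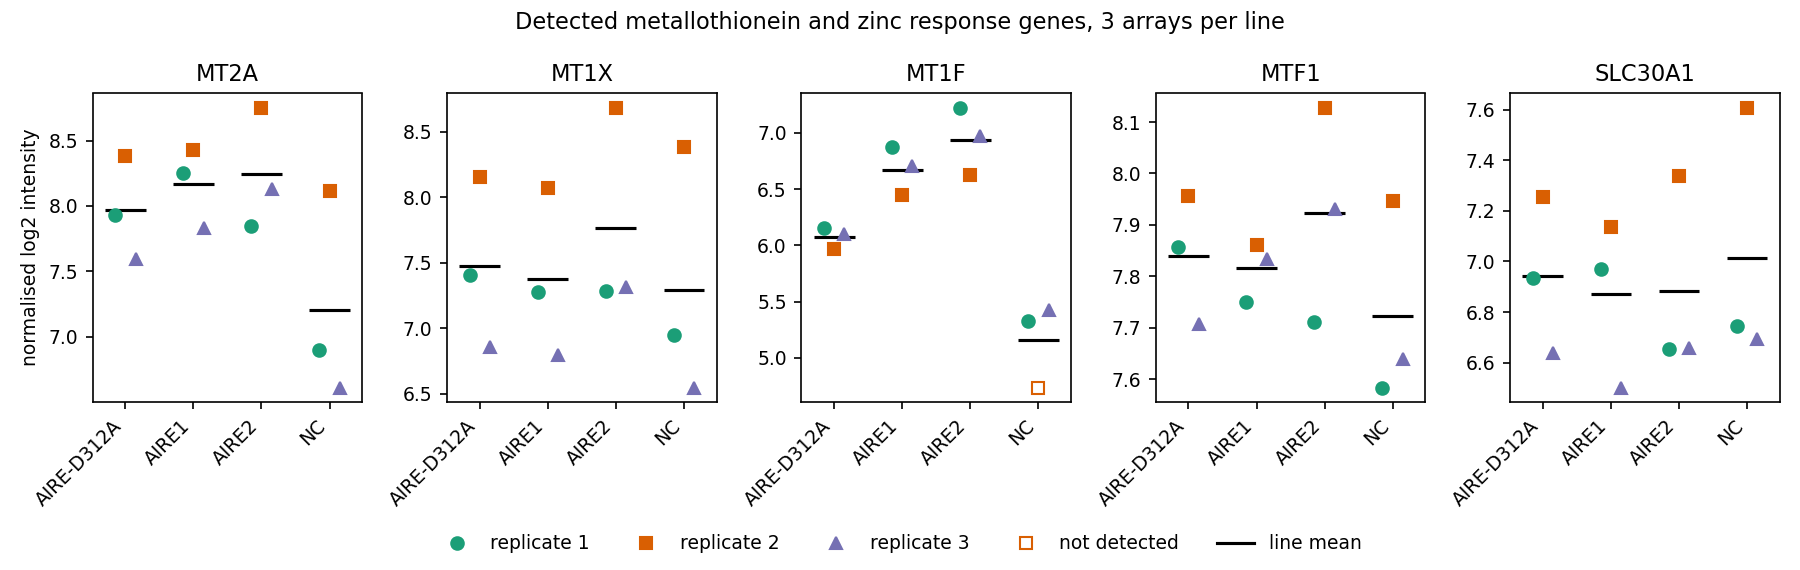
Normalised log2 intensity of the 5 detected genes, 1 point per array, by line, with replicate numbers as symbols and the line mean as a bar; the y axes differ between panels. The open symbol is the NC array on which MT1F was not detected. In MT1F every AIRE line array lies above the NC arrays, whereas in the other 4 genes the replicate 2 array is the highest of each line.

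In a limma fit over all 11949 genes, MT1F was higher in AIRE-D312A than in NC by 0.91 ± 0.19 (log2 difference ± SE, 1.88-fold, adjusted p = 0.0225). It was higher in AIRE1 than in NC by 1.51 ± 0.19 (2.85-fold, limma adjusted p = 5.0e-04) and in AIRE2 than in NC by 1.78 ± 0.19 (3.43-fold, limma adjusted p = 1.7e-04). In this fit, without the block, MT1F was the 1 of 5 measured genes called higher in each AIRE line, with 0 lower. Over all genes tested, 2.64% were called higher and 1.32% lower in AIRE-D312A, 5.21% and 3.06% in AIRE1, and 5.93% and 3.52% in AIRE2. The median difference of the 5 measured genes was 0.18 in AIRE-D312A, 0.09 in AIRE1 and 0.47 in AIRE2, against 0.00, 0.01 and 0.00 over all genes. The 3 contrasts share the NC arrays. MT1F had passed the detection filter through the AIRE lines alone, a route open only to genes that are low in NC. Without the filter it was called too (limma adjusted p = 0.0353, 0.00104 and 4.0e-04 in AIRE-D312A, AIRE1 and AIRE2).

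Experiment by experiment, MT1F in AIRE-D312A exceeded NC by 0.83, 1.23 and 0.67 log2, in AIRE1 by 1.55, 1.71 and 1.28, and in AIRE2 by 1.90, 1.89 and 1.54. The replicate 2 differences are set against an NC array on which MT1F was under the detection limit, so their sizes are not exact. In AIRE-D312A the call was lost without any 1 of its 3 arrays (limma adjusted p = 0.0959, 0.0564 and 0.0806 without replicates 1, 2 and 3), without replicate 1 or 3 of every line (0.266 and 0.269) and without background correction (0.49 log2, adjusted p = 0.0501). Without that correction the MT1F differences of AIRE1 and AIRE2 from NC were 0.90 and 1.10 log2, and both were called. An exact permutation test of 3 against 3 arrays gave the smallest two-sided p it allows, 0.1, in each of these contrasts.

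MT1F was also lower on average in the mutant line than in each wild-type clone, and called so without the block against AIRE2 alone. It was lower in AIRE-D312A than in AIRE2 by 0.87 ± 0.19 log2, a ratio of 0.55 (difference -0.87, limma adjusted p = 0.0438), and the arrays did not overlap. Against AIRE1 the difference of AIRE-D312A was -0.60 ± 0.19, again without overlap, and was not called (limma adjusted p = 0.18). It was called with the replicate number as a block (adjusted p = 0.00337) and without the replicate 2 arrays (-0.66, adjusted p = 0.0188). Between the clones, AIRE1 minus AIRE2 was -0.27 (95% interval -0.69 to 0.16, limma adjusted p = 0.652), and their arrays overlapped. The order of the line means was therefore AIRE2, AIRE1, AIRE-D312A and NC, in which AIRE2 and AIRE1, as well as AIRE1 and AIRE-D312A, did not differ past the threshold without the block, and AIRE-D312A and NC did.

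In these contrasts limma called 1 of the 5 measured genes lower in AIRE-D312A than in AIRE2 (1.34% of all genes were lower and 0.879% higher), 0 in AIRE-D312A against AIRE1 (1 at an unadjusted p under 0.05; 1.56% of all genes were lower and 0.778% higher) and 0 in AIRE1 against AIRE2 (0 at an unadjusted p under 0.05; 1.02% lower and 1.28% higher). With the block 1 gene, MT1F, was lower in AIRE-D312A against each clone (5.93% of all genes against AIRE1 and 8.15% against AIRE2), and 0 were called between the clones (13.3% of all genes in either direction). The MT1F call of AIRE-D312A against AIRE2 was lost without any 1 of 9 arrays, namely each of AIRE-D312A and AIRE1, AIRE2 replicates 1 and 3, and NC replicate 1, at limma adjusted p = 0.053 to 0.179. It was also lost without replicate 1 or 3 of every line (limma adjusted p = 0.621 and 0.487), with median centring (adjusted p = 0.0565) and without the detection filter (0.0606).

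**Figure D4:**
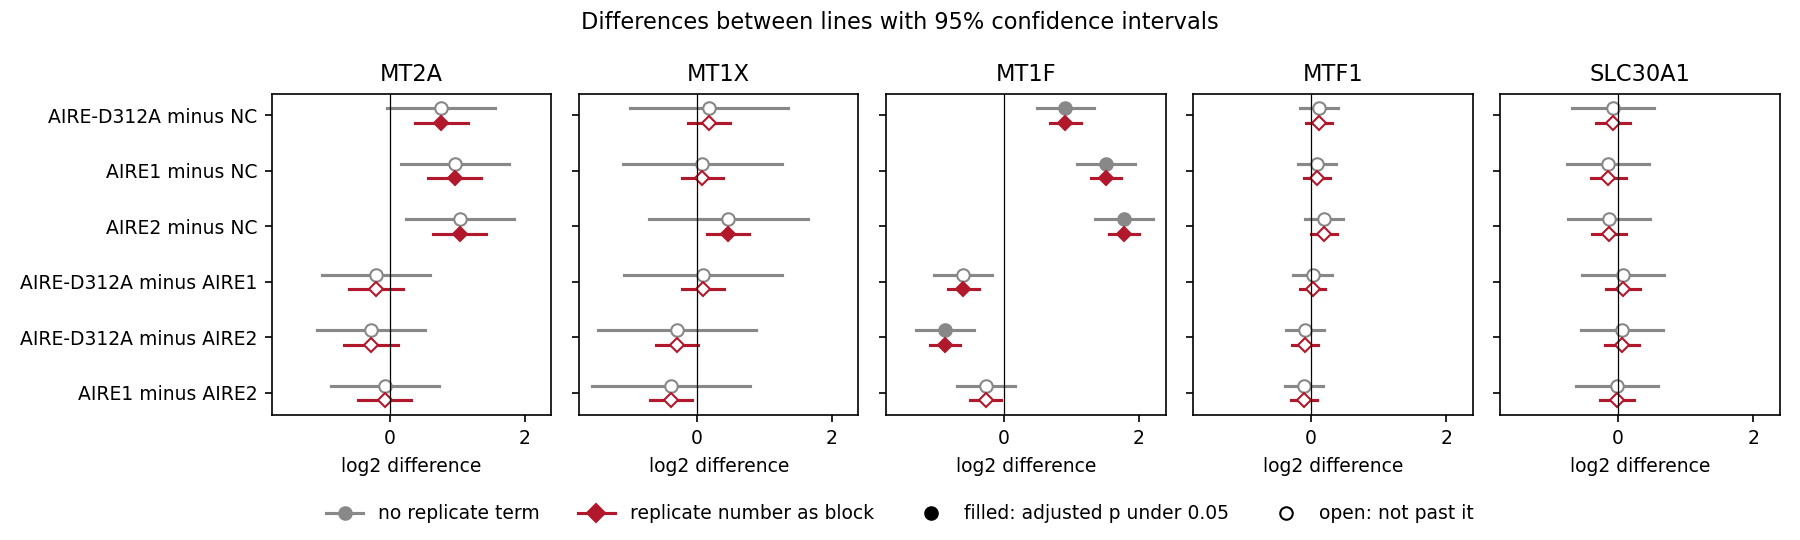
Log2 differences between lines for the 5 detected genes with 95% confidence intervals, from the fit without a replicate term (grey circles) and with the replicate number as a block (red diamonds); filled symbols have a limma adjusted p under 0.05. MT1F is filled in all 3 contrasts against NC, while MT2A in those contrasts and MT1X in AIRE2 against NC are filled with the block alone.

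MT2A encodes the main metallothionein of most human cells. Its levels were 7.93, 8.38 and 7.59 in AIRE-D312A, 8.25, 8.43 and 7.83 in AIRE1, 7.85, 8.75 and 8.13 in AIRE2, against 6.90, 8.11 and 6.61 in NC. The NC replicate 2 array overlapped the AIRE lines, and the other NC arrays lay below all 9 of their arrays. The means were 7.97 ± 0.40, 8.17 ± 0.31 and 8.24 ± 0.46 in AIRE-D312A, AIRE1 and AIRE2, and 7.21 ± 0.80 in NC (SD, n = 3 each).

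Without a replicate term MT2A was not called in AIRE-D312A (0.76 ± 0.36 log2 over NC, limma adjusted p = 0.349), in AIRE1 (0.96 ± 0.36, adjusted p = 0.15) or in AIRE2 (1.04 ± 0.36, adjusted p = 0.108). It was higher than NC in 3 of 3 experiments with each line: by 1.03, 0.27 and 0.98 in AIRE-D312A, by 1.36, 0.32 and 1.22 in AIRE1, and by 0.95, 0.64 and 1.52 in AIRE2. The replicate numbers were taken to pair the arrays, though the labels do not say that a number marks a shared experiment. With the replicate number as a block, limma called MT2A higher in all 3 lines (adjusted p = 0.0136, 0.00239 and 0.00145). In that fit 8.71% of all genes were called higher and 7.72% lower in AIRE-D312A, 12.6% and 10.2% in AIRE1, and 14.2% and 12.5% in AIRE2. Without NC replicate 2, MT2A was called in the unblocked fit too, at 1.21, 1.41 and 1.48 log2 (limma adjusted p = 0.0398, 0.0121 and 0.00917), and without the replicate 2 arrays of every line at 0.99, 1.27 and 1.21 (adjusted p = 0.0107, 0.00139 and 0.00183).

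In the order AIRE2, AIRE1, AIRE-D312A and NC, no neighbours differed in MT2A past the threshold without the block, and with it the step between AIRE-D312A and NC alone did. Between AIRE-D312A and the clones the MT2A difference was -0.20 against AIRE1 (95% interval with the block -0.60 to 0.19) and -0.27 against AIRE2 (-0.67 to 0.12), neither of them called without the block (limma adjusted p = 0.958 and 0.803) or with it (0.547 and 0.328).

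MT1X, another widely expressed metallothionein gene at the far end of the cluster, stood at 7.40, 8.15 and 6.85 in AIRE-D312A, 7.27, 8.07 and 6.79 in AIRE1, 7.28, 8.68 and 7.31 in AIRE2, against 6.94, 8.39 and 6.55 in NC. All lines overlapped, and the replicate 2 array was the highest of each line. MT1X differed from NC by 0.18 ± 0.53 log2 in AIRE-D312A, 0.09 ± 0.53 in AIRE1 and 0.47 ± 0.53 in AIRE2 (SE; limma adjusted p = 0.937, 0.964 and 0.698). With the block it was called in AIRE2 (adjusted p = 0.0293), where it was above NC in 3 of 3 experiments, by 0.34, 0.30 and 0.77. With the block the MT1X intervals were -0.13 to 0.49 in AIRE-D312A and -0.22 to 0.39 in AIRE1. The MT1F differences of these lines from NC, 0.91 and 1.51, lay outside them. Without the block the MT1X intervals were wider, -0.99 to 1.35 in AIRE-D312A and -1.09 to 1.26 in AIRE1. The MT1F difference then lay inside the MT1X interval in AIRE-D312A and outside it in AIRE1. The line means ran from AIRE2 through AIRE-D312A and AIRE1 to NC, and no neighbours differed past the threshold with or without the block.

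The sensor gene MTF1 varied little. Its levels were 7.86, 7.96 and 7.71 in AIRE-D312A, 7.75, 7.86 and 7.83 in AIRE1, 7.71, 8.13 and 7.93 in AIRE2, against 7.58, 7.95 and 7.64 in NC. The lines overlapped, and the differences from NC were 0.12 (95% interval -0.17 to 0.40), 0.09 (-0.19 to 0.37) and 0.20 (-0.08 to 0.48) in AIRE-D312A, AIRE1 and AIRE2 (limma adjusted p = 0.784, 0.789 and 0.418). None was called with the block either (adjusted p = 0.407, 0.494 and 0.115).

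The zinc exporter gene SLC30A1 is, besides the metallothioneins, the best known MTF1 target. It stood at 6.94, 7.25 and 6.64 in AIRE-D312A, 6.97, 7.14 and 6.50 in AIRE1, 6.66, 7.34 and 6.66 in AIRE2, against 6.74, 7.61 and 6.69 in NC. The lines overlapped, with replicate 2 highest in each. The differences from NC were -0.07 (95% interval -0.68 to 0.54), -0.14 (-0.75 to 0.46) and -0.13 (-0.74 to 0.48) in AIRE-D312A, AIRE1 and AIRE2, none of them called without the block (limma adjusted p = 0.953, 0.862 and 0.857) or with it (0.732, 0.415 and 0.452). No neighbours in the order of line means of MTF1 or SLC30A1 differed past the threshold in either fit.

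MT1X, MT2A and SLC30A1 also moved together between experiments. In the fit with both line and replicate number, MT1X was higher in replicate 2 than in the mean of replicates 1 and 3 by 1.27 ± 0.11 log2 (SE, 2.41-fold, limma adjusted p = 4.4e-05). The shift of MT1X was 1.02 in AIRE-D312A, 1.04 in AIRE1, 1.39 in AIRE2 and 1.64 in NC. MT2A was higher by 0.78 ± 0.13 (1.72-fold, adjusted p = 7.9e-04), and by 0.62, 0.39, 0.77 and 1.36 in the same lines. SLC30A1 was higher by 0.61 ± 0.09 (1.53-fold, adjusted p = 3.1e-04), and by 0.47, 0.40, 0.68 and 0.89. These 3 genes thus rose in 4 of 4 lines.

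MTF1 rose less, by 0.22 ± 0.07 (limma adjusted p = 0.015), a call lost with median centring (0.26, adjusted p = 0.0844). MT1F moved the other way, at -0.40 ± 0.08 (limma adjusted p = 0.00149), and was lower in replicate 2 in 4 of 4 lines, by -0.16 in AIRE-D312A, -0.34 in AIRE1, -0.47 in AIRE2 and -0.64 in NC. All 5 measured genes were called, 4 higher and 1 lower, but so were 51.1% of all genes tested (24.7% higher and 26.4% lower), so the count is not particular to them. In size, 0.159% of all genes had a larger absolute shift than MT1X, 1.98% than MT2A, 5.28% than SLC30A1, 16.2% than MT1F and 40.5% than MTF1. The labels give no difference in handling between the experiments.

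**Figure D5:**
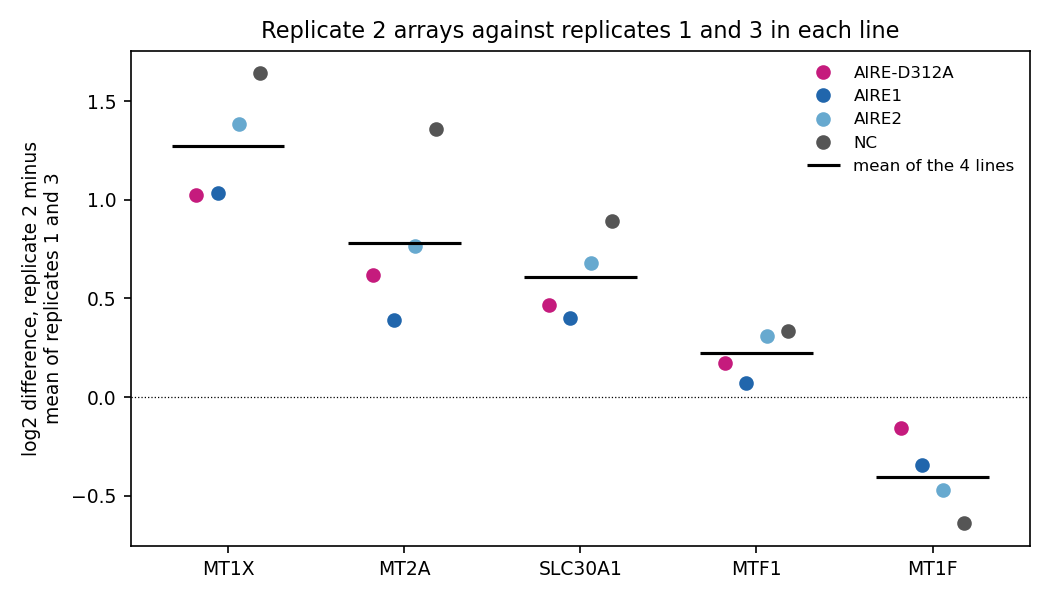
Log2 difference between the replicate 2 array and the mean of the replicate 1 and 3 arrays, 1 point per line, for the 5 detected genes, with the mean of the 4 lines as a bar. MT1X, MT2A, SLC30A1 and MTF1 lie above 0 and MT1F below 0 in every line.

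Fibroblast markers moved with the same experiment. COL1A1, DCN and PDGFRA, 3 of the 4 on the array, were lower in replicate 2, as were 26.4% of all genes. Their differences were -0.79, -0.86 and -0.53 log2 (limma adjusted p = 2.0e-04, 4.3e-04 and 2.6e-04). Their summed normalised intensity was 133 to 152 on the 4 replicate 2 arrays and 202 to 290 on the 8 others. COL1A2 was not measured. Against NC these markers did not move together. None was called without the block. With it, DCN was higher in AIRE1 and AIRE2 (1.20 and 0.91 log2, limma adjusted p = 4.4e-04 and 0.00288). PDGFRA was lower in AIRE1 (-0.65, limma adjusted p = 4.7e-04), and COL1A1 was not called. The part of these markers in the results was not tested.

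Other genes of metal handling were taken from lists. Of 9 further genes with metallothionein names or synonyms on the array, MT1HL1, MT1JP, MT1CP, MT4, MT1L and MT1DP were detected on 0 of 12 arrays, MT1P3 on 1 AIRE-D312A array and MT1B on 1 AIRE2 array. TESMIN, a testis gene once named metallothionein-like, was measured and not called against NC (0.24, -0.05 and 0.36 log2 in AIRE-D312A, AIRE1 and AIRE2).

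Of 7 measured zinc exporter genes besides SLC30A1, 1 was higher in each AIRE line and 0 were lower. It was TMEM163, a zinc transporter of endosomes and the plasma membrane, at 5.98 ± 0.21 in AIRE-D312A, 6.11 ± 0.19 in AIRE1, 6.20 ± 0.19 in AIRE2 and 4.68 ± 0.47 in NC (SD, n = 3 each), where it was detected on 1 of 3 arrays, so the sizes of its differences from NC are not exact. TMEM163 rose by 1.30 ± 0.21, 1.43 ± 0.21 and 1.52 ± 0.21 log2 (SE; limma adjusted p = 0.00437, 0.00116 and 8.1e-04). Like MT1F, it had passed the detection filter through the AIRE lines alone. The list medians were -0.14, 0.03 and -0.03 log2. Over all genes, the fit without the block called 2.64% higher and 1.32% lower in AIRE-D312A. It called 5.21% and 3.06% in AIRE1, and 5.93% and 3.52% in AIRE2. These shares also belong beside the calls without the block in the lists that follow.

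Of 10 measured zinc importer genes, 1 fell in AIRE1 and 0 were called in AIRE-D312A or AIRE2 (0 also at an unadjusted p under 0.05). It was SLC39A4, the importer of intestinal zinc uptake, at -0.55 ± 0.14 log2 in AIRE1 against NC (limma adjusted p = 0.0281). SLC39A4 was also higher in AIRE-D312A than in AIRE1, by 0.59 ± 0.14 (adjusted p = 0.0484). Of 11 copper handling genes, ATOX1, the cytosolic copper chaperone, rose in AIRE-D312A by 0.43 ± 0.10 (limma adjusted p = 0.027), and 0 were called in AIRE1 or AIRE2 (1 and 3 at an unadjusted p under 0.05). With the block, limma called 1 exporter lower in AIRE-D312A besides TMEM163, 1 importer higher in AIRE-D312A and 1 in AIRE2. Of the copper genes, 1 was then higher and 1 lower in AIRE-D312A, 1 and 1 in AIRE1, and 3 were lower in AIRE2. Over all genes, that fit called 8.71% higher and 7.72% lower in AIRE-D312A, 12.6% and 10.2% in AIRE1, and 14.2% and 12.5% in AIRE2.

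Metallothioneins also respond to oxidants, heavy metals and glucocorticoids. Of 11 oxidative and heavy metal stress genes, 1 was higher in AIRE1 and 0 were called in AIRE-D312A or AIRE2 (3 and 4 at an unadjusted p under 0.05). It was HSPA1A, an inducible heat shock chaperone gene with the near-identical copy HSPA1B, at 0.59 ± 0.16 log2 (limma adjusted p = 0.0458). Of 8 glucocorticoid response genes, ZBTB16 fell in all AIRE lines, by 0.60, 0.88 and 0.44 on the log2 scale in AIRE-D312A, AIRE1 and AIRE2 (limma adjusted p = 0.0103, 3.9e-04 and 0.0257). The receptor gene NR3C1 fell by 0.60 in AIRE1 (adjusted p = 0.0279), and TSC22D3, an early glucocorticoid target, rose by 1.39 in AIRE2 (adjusted p = 0.0294). With the block, the stress genes called in AIRE-D312A were 2 higher and 1 lower. In AIRE1 they were 2 higher, and in AIRE2 3 higher with 1 lower. Of the glucocorticoid response genes, 1 was then higher and 2 were lower in AIRE2. The shares of all genes called without and with the block are those given above for each line.

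The genes flanking the metallothionein cluster on 16q13 were compared because they share its location. Of 5 measured neighbours, BBS2, OGFOD1, NUDT21, NUP93 and HERPUD1, limma called 0 against NC in any AIRE line (0, 2 and 2 at an unadjusted p under 0.05 in AIRE-D312A, AIRE1 and AIRE2). With the block 0, 1 and 2 were higher, beside 8.71%, 12.6% and 14.2% of all genes. The list medians were 0.07, 0.20 and 0.31 log2, against 0.91, 1.51 and 1.78 for MT1F.

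Between experiments, 6 of the 11 stress genes were higher in replicate 2 and 0 lower, beside 24.7% of all genes higher. They were NQO1 (0.79 log2), HMOX1 (0.71), SLC7A11 (0.62), GCLM (0.55), TXNRD1 (0.29) and HSPA1A (0.27), named after their values were seen. HMOX1 encodes heme oxygenase, NQO1 a quinone reductase and GCLM a subunit of the enzyme that starts glutathione synthesis. Of the zinc importers 4 rose and 2 fell, beside 24.7% of all genes higher and 26.4% lower. SLC39A3 (0.24 log2), SLC39A9 (0.21), SLC39A7 (0.20) and SLC39A4 (0.20) rose, and SLC39A10 (-0.61) and SLC39A8 (-0.22) fell. These too were named after their values were seen. Of the exporters besides SLC30A1, 1 rose and 2 fell, of the copper genes 3 rose and 4 fell, of the glucocorticoid response genes 2 rose and 3 fell, and of the 16q13 neighbours 2 rose and 2 fell.

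The genes most like MT2A were sought over the 12 arrays, which share 4 lines and 3 experiments. By Pearson's r over 11949 genes they were IFT46 (r = 0.98), GSPT2 (0.97), COQ10B (0.97), CWC15 (0.97) and NDUFA1 (0.96). Among the measured genes of the list, MTF1 had r = 0.84 with MT2A (rank 224 of all genes), MT1X 0.80 (rank 401), SLC30A1 0.57 (rank 1853) and MT1F 0.45 (rank 2843).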

How the data were processed

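Trizol-extracted, DNase-treated RNA (250 ng) was amplified to labelled cRNA, per the labels' protocols. The submitters' processing notes name BeadStudio 3.1.3.0 and no settings. Each deposited file gives, per the file headers, an intensity per probe on a linear scale, neither background-subtracted nor normalised, and a detection p-value. The AIRE-D312A replicate 3 file carries the detection p-values of the AIRE1 replicate 3 array (100% equal). They were not used, and its background was predicted from the 40th percentile of its intensities. The same prediction on each of the other 11 arrays kept the detection call of 98.92 to 100% of probes.

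Intensities were corrected by normexp with negative-control parameters inferred from the detection p-values (offset 16), quantile-normalised and log2-transformed (limma 3.58.1, R 4.3.3). Of 48701 probes, 24782 had 1 gene symbol, 0 several and 23919 none; 24154 matched RefSeq. A probe was kept where all 3 arrays of a line had a detection p under 0.01, with the brightest probe per gene (11949 genes). One limma fit over 12 arrays with a mean per line gave 6 contrasts, with Benjamini-Hochberg adjustment over all genes and calls at an adjusted p under 0.05; replicate 2 was tested in the fit with line and replicate number. The fits without and with the block were tested on simulated data in the contrasts of AIRE1 and AIRE2 with NC alone. The replicate 2 contrast was not checked there. The data simulated for the fit without the block held no replicate effect. Replicate numbers, from the file names, were taken to pair the arrays, which the labels do not state. Deviations from line means correlated at 0.33 to 0.85 in every same-numbered pair, against -0.74 to 0.53 between numbers. These ranges overlap. The authors' deposited value table has 1 intensity per line and was an alternative only. It equals a rescaled mean of replicates 1 and 3, with a weight of 0 on replicate 2, plus an intercept of -68.3 to -46.0 per line.

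The members and lists were chosen with earlier results of these data known. List genes were named where called in at least 1 contrast against NC, up to 6 per list by mean absolute difference; the genes like MT2A were the 5 of highest r. Slides are not given for most arrays, so slide was not fitted. Alternatives were the replicate block, leaving out arrays, other background corrections, normalisations and filters, all probes, and an exact permutation test.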

Additional observations from a re-analysis of the deposited data

Results flagged for a closer look

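The effect of AIRE-D312A on MT1F against NC differed from that of AIRE2 against NC by -0.87 log2 (limma adjusted p = 0.0438, 3 arrays per line). It was singled out because the difference between the effects of 2 lines passed the test itself. AIRE-D312A and AIRE2 were set against the same NC arrays, so this is the direct difference between them, lower in AIRE-D312A in 3 of 3 experiments. The call was lost in 11 of the 15 settings that left out arrays, with median centring and without the detection filter.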

How the results depend on the processing

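MT1F kept its direction in the 3 contrasts against NC under every alternative that tested it, and was called in AIRE1 and AIRE2 under all of them except the exact permutation test, which cannot pass the threshold with 3 arrays a line. With the replicate block, the measured genes called against NC numbered 2 in AIRE-D312A, 2 in AIRE1 and 3 in AIRE2, and 1 in AIRE-D312A against AIRE1, beside 1, 1, 1 and 0 without it; the paired fit changed no other call. The count of AIRE-D312A against NC was 0 without background correction and with normexp on the array intensities, and that of AIRE-D312A against AIRE2 was 0 with median centring and without the detection filter; the cause was not tested. With detection asked on all arrays MT1F was not tested, which left 0 calls in each contrast, and the exact permutation test also gave 0. Leaving out 1 array, or 1 replicate number in every line, gave 0 to 2 calls in AIRE-D312A against NC, 1 to 2 in AIRE1 and in AIRE2 against NC, and 0 to 1 in AIRE-D312A against AIRE1 and against AIRE2.

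Some differences that were not called changed sign. Median centring, which shifted all genes by a median of 0.14 log2 in AIRE1 against NC, gave SLC30A1 0.014 in AIRE-D312A and 0.054 in AIRE1 against NC, and 0.072 in AIRE1 against AIRE2. In AIRE-D312A against AIRE1 it gave MT1X -0.009, MTF1 -0.056 and SLC30A1 -0.040. With 1 array left out, MT1X ranged from -0.20 to 0.72 in AIRE-D312A and from -0.29 to 0.63 in AIRE1 against NC, and SLC30A1 from -0.23 to 0.22, -0.31 to 0.15 and -0.36 to 0.17 in AIRE-D312A, AIRE1 and AIRE2. In AIRE-D312A against AIRE1, MT1X ranged from -0.25 to 0.44, MTF1 from -0.033 to 0.091 and SLC30A1 from -0.11 to 0.22. Against AIRE2 the ranges of AIRE-D312A were -0.63 to 0.17 for MT1X, -0.191 to 0.0196 for MTF1 and -0.096 to 0.28 for SLC30A1. In AIRE1 against AIRE2, MT2A ranged from -0.271 to 0.18, MT1X from -0.73 to 0.078 and SLC30A1 from -0.147 to 0.21. Without replicate 1 of every line, MT1X was -0.033 in AIRE1 against NC, MTF1 -0.016 in AIRE-D312A against AIRE1 and SLC30A1 -0.054 in AIRE-D312A against AIRE2. Without replicate 2 of every line, SLC30A1 was 0.067 in AIRE-D312A and 0.018 in AIRE1 against NC and 0.078 in AIRE1 against AIRE2, MTF1 was -0.0092 in AIRE-D312A against AIRE1, and MT2A was 0.053 in AIRE1 against AIRE2. Without replicate 3 of every line, MT2A was 0.041 and SLC30A1 0.057 in AIRE1 against AIRE2. The size of the MT1F difference from NC depended on the background correction: it was 0.90 in AIRE1 and 1.10 in AIRE2 without one, and 0.84 and 1.03 with normexp on the array intensities, against 1.51 and 1.78. In the authors' deposited table the MT1F log2 ratio was 0.86 in AIRE-D312A, 1.70 in AIRE1 and 2.19 in AIRE2 over NC, and -1.33 in AIRE-D312A over AIRE2. Some uncalled differences had the opposite sign there. MTF1 stood at 170 in AIRE-D312A and 170 in AIRE1 against 190 in NC, and MT1X at 98.1 in AIRE1 against 99.2 in NC. SLC30A1 stood at 79.0 in AIRE-D312A against 80.2 in AIRE2. Signal near background limits MT1F in NC, where it was detected on 2 of 3 arrays.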
